A study of Mus musculus with 6 samples.

Results

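The genes of the MHC class II pathway form a set of 10 among the 27179 genes of the deposited expression table. They encode the chains H2-Ab1, H2-Aa and H2-Eb1, the peptide-loading proteins H2-DMa, H2-DMb1 and H2-DMb2, their modulators H2-Oa and H2-Ob, the invariant chain Cd74 and the transactivator Ciita. The set was chosen by gene symbol because H2-Ab1 was higher under the Asic3-null label in this same comparison, while most lineage genes were lower. The values of H2-Ab1 between the groups are therefore given as a description. The question was whether its partners and Ciita were higher together with it.

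Leukemia-initiating cells (LICs) of a mouse acute myeloid leukemia were sequenced in 3 libraries labelled Asic3-null (Asic3-/-) and 3 labelled WT (Asic3+/+). Both groups were on the C57BL/6 strain, were given as 8 weeks old, and carried the MLL-AF9 fusion, delivered by retrovirus together with a YFP reporter into lineage-negative fetal liver cells that were then transplanted into irradiated C57BL/6 recipients. YFP+Mac-1+c-Kit+ cells were sorted from bone marrow, and their total RNA was made into libraries that carry no strand information. ASIC3 is a proton-gated ion channel, and its germline deletion was the only difference between the groups that the labels give. The study describes its experiments in general as biologically repeated, but the sources used here do not tie each library to a recipient, so a p value here measures the spread between these libraries.

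MHC class II molecules are heterodimers of an alpha and a beta chain that present peptides from endosomes to CD4+ T cells. In the endoplasmic reticulum they assemble with the invariant chain, which endosomal proteases later cut down to a small peptide in the groove. H2-DM exchanges that peptide for others, and H2-DO restrains H2-DM. Ciita does not bind DNA itself. It acts through RFX, CREB and NF-Y factors at the X and Y boxes of class II promoters, and dendritic cells, B cells and activated macrophages express the pathway at high levels, whereas immature myeloid cells usually do not.

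The library size, inferred from the values because the RPKM values (reads relative to the length of the gene and the size of the library) came out as whole reads for all 16825 genes above 0, lay between 1947168 and 2381861 reads. The targeted gene ran against the labels, with 9.12, 4.11 and 6.58 RPKM of Asic3 under the Asic3-null label and 1.22, 1.85 and 0.435 RPKM under the WT label. The span of Cdk5, at 16.5 to 25.2 RPKM, covers that of Asic3, and without strand information reads there cannot be assigned with certainty. Every direction given here follows the labels and would turn if they had been exchanged. The table gives no values per exon, so whether the Asic3 reads lie outside a deleted part was not tested. Xist was at 46.5 to 71.9 RPKM in the former and at most 0.0573 RPKM in the latter, and the Y-linked Ddx3y, Kdm5d, Uty and Eif2s3y were at 0 in the former and summed to 81.4 to 118 RPKM in the latter, so that genotype label and sex cannot be told apart. Of the genes of the sort, Itgam, which encodes the alpha chain of Mac-1, was at 12.9, 12.3 and 16.9 RPKM against 89.5, 85.7 and 55.1 RPKM (log2 fold change -2.35, adjusted p = 0.00072 from limma), and Kit was at 14.4, 17.9 and 20.4 RPKM against 9.09, 15.3 and 8.97 RPKM (adjusted p = 0.219).

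The promoter elements by which this pathway is usually switched on are shown because they occur in genes of the set that differ widely in level. RefSeq promoters, from 250 bases before to 50 after the start, were at hand for 7 of the 10 genes. H2-Ab1, Cd74 and Ciita were not in that table. Of the 7, 6 held the Y box core ATTGG within the last 100 bases before the start, and each of these is given with the 50 bases before it and 5 after it, read 5′ to 3′ on the strand of the gene in GRCm38.p6, with Y box and X box matches in capitals. The X box was searched as AGNAAC and ATG with 2 bases of any kind between them.
H2-Aa (minus strand, chr17:34287862-34287921): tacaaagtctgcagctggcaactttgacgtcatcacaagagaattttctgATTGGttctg
H2-Eb1 (plus strand, chr17:34305758-34305817): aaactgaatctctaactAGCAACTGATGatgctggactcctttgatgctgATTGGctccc
H2-DMb1 (plus strand, chr17:34153080-34153139): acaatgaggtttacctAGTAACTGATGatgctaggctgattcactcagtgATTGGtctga
H2-DMb2 (plus strand, chr17:34145109-34145168): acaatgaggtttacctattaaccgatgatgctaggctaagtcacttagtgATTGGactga
H2-Oa (plus strand, chr17:34092286-34092345): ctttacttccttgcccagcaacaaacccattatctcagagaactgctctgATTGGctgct
H2-Ob (plus strand, chr17:34238798-34238857): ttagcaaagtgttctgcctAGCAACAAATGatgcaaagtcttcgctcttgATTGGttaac

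The Y box core stood 43 bases before the start in H2-Oa, 48 in H2-Aa, 57 in H2-Ob, 59 in H2-Eb1, 61 in H2-DMb1 and 90 in H2-DMb2, and H2-DMa held it only 198 bases before the start of its second listed promoter. Searched on both strands, this core was in 37.4% of all 32851 promoters of the table, so that its presence in 7 of 7 genes describes the set no further. The X box letters were in 3 of the 7 genes, H2-Eb1, H2-DMb1 and H2-Ob, and in 0.895% of all promoters. Only these exact letters were counted. H2-Oa held agcaac without the ATG and H2-Aa held ggcaac, so the count does not show that the other genes lack an X box. An X box followed by a Y box on the same strand, with 25 to 40 bases from the start of the X box to the start of the Y box, a spacing chosen after the matches were seen, was in 4 of the 32851 promoters (0.0122%), namely H2-Eb1, H2-DMb1, H2-Ob and the further beta chain gene H2-Eb2. The paralogs H2-DMb1 and H2-DMb2 were identical at 54 of these 60 bases, and counted from the 5′ end of the window of H2-DMb1, their differences were G18T, T23C, G38A, T40G, C46T and T56A, of which G18T and T23C lie in the X box of H2-DMb1. The interferon gamma activated site (TTCNNNGAA, the same on either strand) was in 8.3% of all promoters and, among the 7 genes, in H2-DMb2. These are matches of letters and not measured binding, and a promoter with X and Y boxes belonged both to the well-expressed H2-DMb1 and to H2-Eb1, which had 6 reads in all.

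The alpha and beta chains were not present in matched amounts (plot of levels by library). H2-Ab1 (Entrez 14961, chromosome 17, 34263227 to 34269418 of GRCm38.p6), the beta chain of the I-A molecule, had 22.8, 31.0 and 29.6 RPKM under the Asic3-null label and 12.8, 16.4 and 14.5 RPKM under the WT label. All 3 libraries labelled Asic3-null were above all 3 labelled WT, with means of 27.8 ± 4.38 and 14.5 ± 1.801 RPKM (SD, n = 3 each) and 234 against 111 recovered reads. The difference of 0.88 on the log2(RPKM + 1) scale (standard error 0.17) is the value that put the gene forward.

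H2-Aa (Entrez 14960), the alpha chain that pairs with H2-Ab1, had 0.404, 0.393 and 2.79 RPKM against 0.445, 1.44 and 0 RPKM. These values rested on 1, 1 and 7 reads against 1, 3 and 0, the groups overlapped, and the mean of all libraries was under the 1 RPKM required for the test. In the fit with no filter the log2 fold change was 0.36 (95% interval -0.74 to 1.45, adjusted p = 0.772 from limma), and it turned to -0.12 without Asic3-null replicate 3, which held 7 of the 13 reads. The ratio of recovered reads per library size was 2.05, with an exact 95% interval from 0.572 to 9.11, which covers counting error only. That interval holds no change as well as the ratio of 1.92 found for H2-Ab1 in the same way, so at this depth H2-Aa could be placed neither with H2-Ab1 nor apart from it.

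H2-Ab1 exceeded its partner in both groups. Per base of gene, H2-Ab1 had 23.3 times the reads of H2-Aa under the Asic3-null label (exact 95% interval 12.1 to 51.6) and 24.9 times under the WT label (9.44 to 92.9). The intervals cover counting error only and overlap almost wholly.

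H2-Eb1 (Entrez 14969), the beta chain of the I-E molecule, had 0, 0.755 and 0.51 RPKM against 0, 0.308 and 0 RPKM, from 0, 3 and 2 reads against 0, 1 and 0. With 6 reads in all, the ratio of reads between the groups was 4.55 with an exact 95% interval from 0.51 to 215. The fit with no filter gave a log2 fold change of 0.34 (95% interval -0.18 to 0.86, adjusted p = 0.578). Its alpha chain gene H2-Ea, which is known to be defective in C57BL/6 mice, was listed at 0 in all 6 libraries, and H2-Eb2 lay between 0 and 0.621 RPKM.

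**Figure D1:**
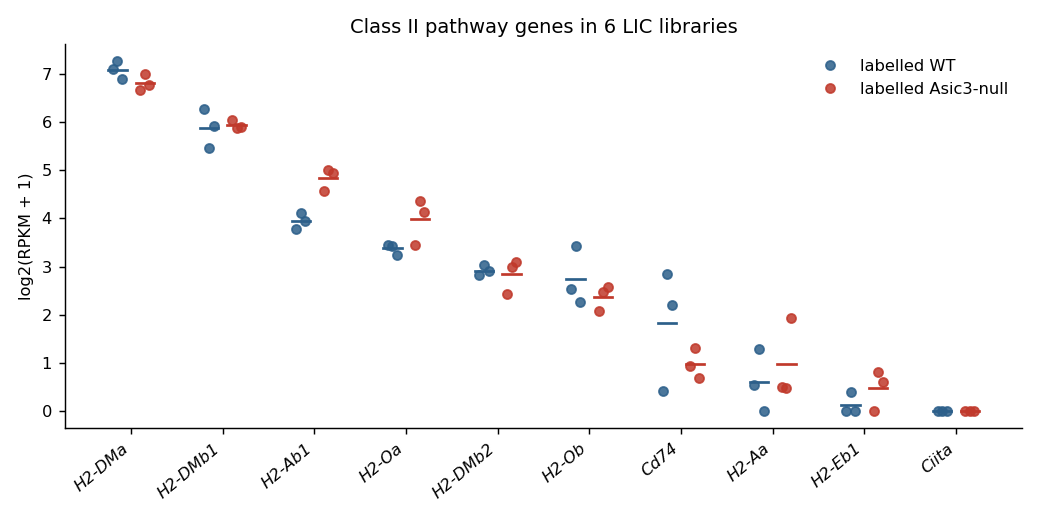
Level of each class II pathway gene as log2(RPKM + 1) (vertical axis) in the 3 libraries labelled WT (blue) and the 3 labelled Asic3-null (red), with genes ordered by their mean; points are libraries and short bars are group means on the plotted scale. H2-Ab1, which chose the set, is the only one of the 10 genes whose groups do not overlap. H2-Aa (0 to 2.79 RPKM) and H2-Eb1 (0 to 0.755 RPKM) are low in both groups and Ciita is at 0.

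Of the 9 genes other than H2-Ab1, 6 reached a mean of 1 RPKM and were tested, and 0 of these 6 passed the threshold of 0.05 on the adjusted p. By limma 1 of the 6, H2-Oa, had an unadjusted p under 0.05, and limma-voom on the recovered reads also called none of them. Of all 12037 tested genes, 0.523% were called higher under the Asic3-null label and 2.82% lower, 15.9% had an unadjusted p under 0.05, and 22.6% had groups that did not overlap. None of the 6 had groups without overlap, 2 had log2 fold changes above 0 and 4 below, and their median was -0.17 against 0.03 for all tested genes.

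Of the peptide-loading genes, H2-DMa and H2-DMb1 held the highest levels of the set, and none of the 3 passed the test. H2-DMa (Entrez 14998, 34119693 to 34139101 on chromosome 17), the alpha chain of H2-DM, had 100.6, 127.9 and 108.5 RPKM against 136.4, 152.6 and 117.9 RPKM. The groups overlapped, with a log2 fold change of -0.27 (standard error 0.14, 95% interval -0.60 to 0.06, adjusted p = 0.404 from limma). RefSeq places the listed span of H2-DMa over part of Brd2, and as the libraries carry no strand information, reads there cannot be assigned with certainty. H2-DMb1 (Entrez 14999), a beta chain of H2-DM, had 65.2, 57.9 and 58.7 RPKM against 76.3, 43.2 and 59.5 RPKM, so that the libraries labelled Asic3-null lay inside the range of those labelled WT. Its log2 fold change was 0.06 (standard error 0.20, 95% interval -0.39 to 0.50, adjusted p = 0.919), and it turned to -0.15 without WT replicate 2.

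H2-DMb2 (Entrez 15000), the second beta chain gene, had 4.40, 6.94 and 7.58 RPKM against 6.05, 7.19 and 6.45 RPKM. Its log2 fold change was -0.075 (standard error 0.23, 95% interval -0.59 to 0.44, adjusted p = 0.906), and it turned to 0.13 without Asic3-null replicate 1. In every library H2-DMb1 was above H2-DMb2, by 6.01 to 14.8 times in RPKM. The transcripts of these paralogs share sequence, since 22.7% of the 50-base windows of H2-DMb1 and 21.2% of those of H2-DMb2 in GENCODE M21 occur in the other gene, and how such reads were counted is not given in the sources used here. H2-DMa exceeded H2-DMb1 by 1.54 to 3.53 times, with overlapping groups.

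The chains of H2-DO, the modulator that binds H2-DM, did not pass the test in either gene. H2-Oa (Entrez 15001), the alpha chain, had 9.88, 19.6 and 16.6 RPKM against 9.97, 9.79 and 8.46 RPKM. The lowest library labelled Asic3-null lay inside the range of those labelled WT and the other two above it. Its log2 fold change was 0.61 (standard error 0.24, 95% interval 0.06 to 1.16, unadjusted p = 0.0343, adjusted p = 0.267 from limma), and over the alternatives the adjusted p was between 0.0668 and 0.477. The span of H2-Oa overlaps the non-coding gene BC051537, which was at 0.255 to 3.02 RPKM.

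H2-Ob (Entrez 15002, 34238905 to 34245908 on chromosome 17), the beta chain, had 3.23, 4.56 and 4.94 RPKM against 4.81, 9.81 and 3.80 RPKM. WT replicate 2 held the highest value and the other libraries overlapped, with a log2 fold change of -0.37 (standard error 0.32, 95% interval -1.09 to 0.35, adjusted p = 0.615 from limma). It was -0.024 without WT replicate 2 and -0.61 without WT replicate 3. The ratio of H2-Oa to H2-Ob in RPKM was 3.05, 4.30 and 3.37 under the Asic3-null label and 2.07, 0.998 and 2.23 under the WT label, without overlap. This ratio was examined after the values of its parts were known, so no test is given.

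**Figure D2:**
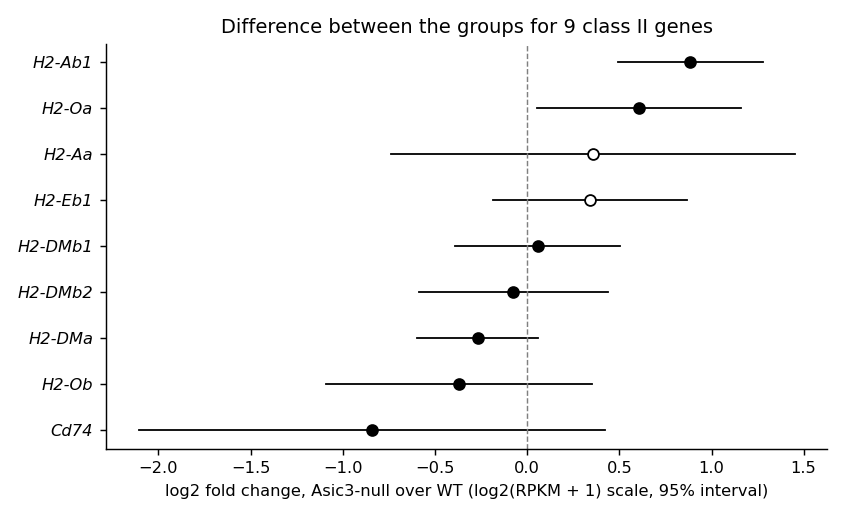
Log2 fold change, Asic3-null label over WT label (horizontal axis, log2(RPKM + 1) scale) for the 9 class II genes with at least 1 read, with 95% intervals from limma; filled points are the 7 genes in the filtered fit and open points the 2 taken from the fit with no filter. H2-Ab1, which chose the set, stands at 0.88, the interval of H2-Oa (0.06 to 1.16) lies just above 0, and the other 7 intervals include 0.

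Cd74 (Entrez 16149), the invariant chain that every class II molecule needs for its assembly and sorting, had 0.916, 1.48 and 0.602 RPKM against 0.336, 6.17 and 3.58 RPKM. These were 3, 5 and 2 reads against 1, 17 and 12, so that WT replicate 1 was the lowest library of all while WT replicates 2 and 3 were the highest. The log2 fold change was -0.84 (standard error 0.56, 95% interval -2.11 to 0.42, adjusted p = 0.501 from limma), below 0 where that of H2-Ab1 was above it. Pooled over libraries the ratio of reads was 0.304, with an exact 95% interval from 0.132 to 0.638 that covers counting error only and leaves out the spread between the libraries labelled WT. Its log2 fold change ran from -1.54 to -0.33 over the alternatives, with an adjusted p of 0.0818 to 0.844. The ratio of H2-Ab1 to Cd74 in RPKM was 24.9, 20.9 and 49.2 under the Asic3-null label and 38.0, 2.65 and 4.05 under the WT label, so that WT replicate 1 lay inside the range of the other group.

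Ciita (Entrez 12265, chromosome 16, 10480014 to 10531064), the master regulator of class II transcription, was listed at 0 in all 6 libraries. A count of 0 allows up to 3 reads of the 7045518 sequenced under the Asic3-null label and up to 3 of the 6417289 under the WT label, for counting error only. No fold change can be given between groups at 0, and a level of Ciita below these limits was not detectable at this depth.

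In order of mean level, the set ran from H2-DMa through H2-DMb1, H2-Ab1, H2-Oa, H2-DMb2, H2-Ob, Cd74, H2-Aa and H2-Eb1 to Ciita, all in RPKM and thus per length. Among the 16825 genes with a read, H2-DMa ranked above 95.9% by mean RPKM and H2-DMb1 above 89.9%, H2-Ab1 above 72.3%, H2-Oa above 61.0%, Cd74 above 35.6%, H2-Aa above 27.6% and H2-Eb1 above 18.5%. The ranges over the 6 libraries stood apart between H2-DMa and H2-DMb1, between H2-DMb1 and H2-Ab1, and between H2-Oa and H2-DMb2. H2-Ab1 was above H2-Oa in 6 of 6 libraries although their ranges overlapped, and H2-Ob was above Cd74 in 6 of 6. H2-DMb2 and H2-Ob, Cd74 and H2-Aa, and H2-Aa and H2-Eb1 changed order between libraries, and none of these neighbours differed beyond their spread.

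The genes around and between the class II loci were read from the same fit. From H2-K1 to H2-Ea, 33996012 to 34344645 on chromosome 17, RefSeq lists 29 genes, of which 19 were tested, 6 of them members. The 13 others were H2-K1, Ring1, Mir219a-1, H2-Ke6, Slc39a7, Rxrb, Col11a2, BC051537, Brd2, Psmb9, Tap1, Psmb8 and Tap2, and 0 of these were called by limma. Slc39a7, a zinc transporter, was the only one of them with groups that did not overlap, at 66.96, 67.7 and 66.9 RPKM against 81.5, 80.0 and 82.3 RPKM (log2 fold change -0.27, adjusted p = 0.28 from limma). The log2 fold changes of the 13 ran from -0.34 to 0.72 with a median of 0.09, and the highest belonged to Mir219a-1, a short gene at 0 in 3 libraries and at 3.87 to 4.32 RPKM in the others. Between H2-DMb1 and H2-Ob lie Psmb9, Tap1, Psmb8 and Tap2, which cut and transport peptides for class I, and their log2 fold changes were 0.12, 0.35, 0.14 and 0.12.

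**Figure D3:**
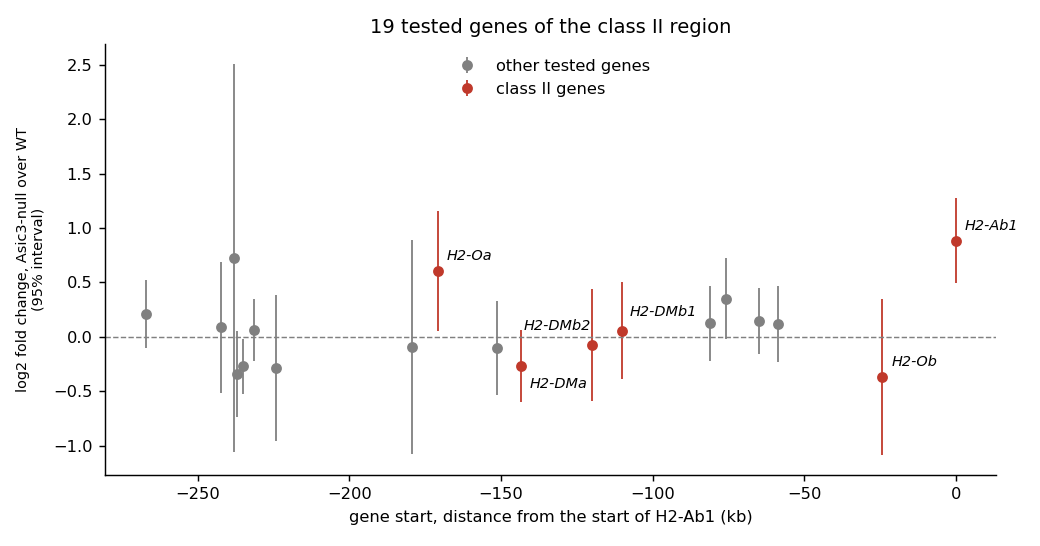
Log2 fold change, Asic3-null label over WT label (vertical axis, with 95% intervals from limma) against the distance of each gene's start from that of H2-Ab1 in kb, for the 19 tested genes of the class II region; red points are class II genes. H2-Ab1 at 0 kb is the highest at 0.88, but it chose the set by being higher in this same comparison. The nearest tested neighbour of H2-Ab1, H2-Ob, 24.3 kb away, is at -0.37.

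The factors that act at class II promoters were measured in both groups. Of the 10 genes listed, Rfx5, Rfxap, Rfxank, Nfya, Nfyb, Nfyc, Creb1, Crebbp, Ep300 and Kat2b, all 10 were tested and none was called by limma at the adjusted threshold or had an unadjusted p under 0.05, with a median log2 fold change of 0.205. The lowest p values belonged to the RFX subunits Rfxap (log2 fold change 0.32, adjusted p = 0.421) and Rfxank (0.28, adjusted p = 0.488) and to the NF-Y subunit Nfya (0.32, adjusted p = 0.434). Rfxap was at 15.2, 15.9 and 15.6 RPKM against 10.3, 11.4 and 15.4 RPKM.

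Genes of interferon gamma signalling and other factors upstream of Ciita lay mostly below 0. Of 12 listed, 10 were tested and 0 were called. By limma 5 of the 10 had an unadjusted p under 0.05, against 15.9% of all tested genes. The log2 fold changes of 9 of 10 were below 0, with a median of -0.40. The receptor subunit Ifngr2 was at 24.2, 19.5 and 23.04 RPKM against 39.5, 32.5 and 30.8 RPKM (adjusted p = 0.0879), the myeloid factor Spi1 at 339.2, 303.6 and 300.6 RPKM against 446.3, 391.1 and 391.7 RPKM (adjusted p = 0.136), and Irf1 at 24.7, 20.0 and 22.7 RPKM against 28.4, 34.4 and 28.4 RPKM (adjusted p = 0.22). In each of these 3 genes every library labelled Asic3-null was below every library labelled WT. Socs1 had the lowest log2 fold change of the 10 (-0.71, adjusted p = 0.221 from limma), with overlapping groups. The list was not divided into genes that raise and genes that lower Ciita, so its counts give no direction for the pathway as a whole. Irf4 and Prdm1, factors of B cells and plasma cells, were at most 0.252 RPKM.

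Endosomal processing genes were lower in part under the Asic3-null label. All 10 listed genes were tested and 4 were called, all lower under the Asic3-null label, against 2.82% of all tested genes called lower. The median log2 fold change over the list was -0.52. Groups did not overlap in 8 of 10, against 22.6% of all tested genes. Ctss, the protease that makes the last cut in the invariant chain, was at 103.6, 68.8 and 77.0 RPKM against 264.6, 193.3 and 184.2 RPKM (log2 fold change -1.36, standard error 0.19, adjusted p = 0.00653 from limma). Ctsl, a related cathepsin, was at 27.4, 25.8 and 30.2 RPKM against 49.95, 69.0 and 59.6 RPKM (log2 fold change -1.06, adjusted p = 0.00748). Lgmn, an asparaginyl endopeptidase that opens antigens and the invariant chain, was at 1.15, 1.79 and 1.36 RPKM against 6.09, 7.40 and 4.51 RPKM (log2 fold change -1.51, adjusted p = 0.0145). Ctsb, at 120.3, 117.9 and 123.9 RPKM against 188.3, 179.6 and 156.7 RPKM, was called narrowly (log2 fold change -0.53, adjusted p = 0.0475), and it passed in 2 of 14 alternatives, losing the call without any 1 library. Lgmn lost it without Asic3-null replicate 1 or 3 or WT replicate 1 or 2, with adjusted p of at most 0.0659.

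Among the genes that set how long class II stays at the surface, Marchf1 had the largest difference. Marchf1 encodes a ubiquitin ligase that sends class II molecules from the surface to lysosomes, and it was at 1.16, 0.696 and 1.06 RPKM against 12.5, 12.2 and 7.36 RPKM. Marchf1 averaged 0.974 ± 0.245 against 10.7 ± 2.91 RPKM (SD, n = 3 each). The log2 fold change was -2.54 with a standard error of 0.26 (adjusted p = 0.00133 from limma), and the call was made in 14 of 14 alternatives. It was the only one called of the 5 tested of 6 listed. Its relative Marchf8 was at 4.27 to 5.56 RPKM against 3.83 to 5.05 RPKM (adjusted p = 0.938).

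The class I pathway, which presents peptides from the cytosol, differed at a few loci. Of 22 listed genes 22 were tested and 2 were called, both higher under the Asic3-null label. Over all tested genes 0.523% were called higher. The median log2 fold change of the list was 0.13. H2-Q6 was at 185.3, 135.2 and 133.3 RPKM against 43.6, 53.9 and 48.7 RPKM (log2 fold change 1.60, adjusted p = 0.00121 from limma) and H2-Q7 at 34.6, 38.8 and 28.8 RPKM against 10.2, 10.7 and 6.33 RPKM (log2 fold change 1.82, adjusted p = 0.00259). These are nonclassical class I genes of near-identical sequence, so reads could have been split between them and other copies. H2-K1 and H2-D1, the classical heavy chains, had log2 fold changes of 0.21 and 0.09 (adjusted p = 0.491 and 0.778). Nlrc5, the class I counterpart of Ciita and named here after its values were seen, was at 5.72, 5.99 and 5.21 RPKM against 3.01, 2.51 and 2.55 RPKM, without overlap but above the threshold (log2 fold change 0.85, adjusted p = 0.0622). Of the list 6 genes had groups without overlap. Besides those above, H2-Q4 (0.89, adjusted p = 0.0506 from limma) and Canx (0.11, adjusted p = 0.676) were higher. H2-T23 was lower, at 50.2, 53.2 and 48.5 RPKM against 76.55, 74.9 and 61.6 RPKM (-0.47, adjusted p = 0.112).

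**Figure D4:**
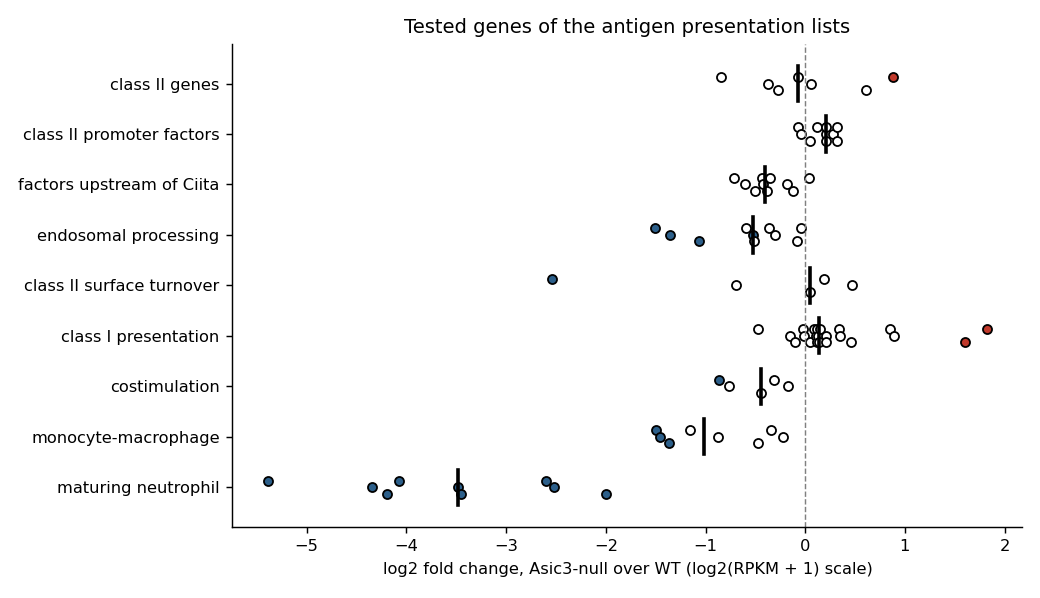
Log2 fold change, Asic3-null label over WT label (horizontal axis, log2(RPKM + 1) scale) for the tested genes of 9 lists (rows); filled points passed the adjusted threshold (red higher, blue lower), open points did not, and black bars are list medians. Class II genes lie on either side of 0 with a median of -0.075, while the medians are -0.52 for endosomal processing, -1.01 for monocyte and macrophage genes and -3.48 for maturing neutrophil genes.

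Costimulatory genes, which professional antigen-presenting cells use to activate T cells, ranged from 0 to 29.1 RPKM. Of 10 listed, 5 were tested, and 1 was called, Icosl, the ligand of ICOS, at 15.9, 11.5 and 13.5 RPKM against 29.1, 26.4 and 21.5 RPKM (log2 fold change -0.87, adjusted p = 0.0367 from limma). Icosl kept an adjusted p under 0.05 in 6 of 14 alternatives and lost the call without any 1 library except WT replicate 3, with adjusted p from 0.0501 to 0.129. Icam1, an adhesion molecule, was at 11.9 to 18.2 RPKM (adjusted p = 0.706). Cd86 was at 0 under the Asic3-null label and at most 0.809 RPKM under the WT label, and Cd40 was at most 0.947 RPKM.

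Markers of other cells that carry class II were examined in the same libraries, since in bulk RNA fewer cells of a type and less RNA per cell cannot be told apart. Of 14 B cell markers, Ms4a1 was at 0 throughout, Pax5 and Ebf1 had values above 0 in 1 library each, and 0 of 4 tested genes were called, with Cd37 (adjusted p = 0.821), Cd79b (0.847) and Vpreb1 (0.959) the named ones. The summed level of the list was 394.9 to 470.9 RPKM against 418.2 to 456.8 RPKM and came almost wholly from Cd37, Ly86 and Cd79b. Of 16 dendritic cell markers, Cd209a, Ly6d and Cacnb3 were at 0 throughout, Zbtb46 and Ccr7 were above 0 only in WT replicate 1, Itgax was at most 0.63 RPKM, and 0 of 5 tested were called, with Flt3, Sirpa and Tcf4 having adjusted p of 0.358, 0.332 and 0.656. Their sum was 349.5 to 400.9 RPKM against 274.7 to 387.9 RPKM. Other genes of these lists were well above 0, with Cd79b at 37.3 to 49.0 RPKM, Flt3 at 123.2 to 207.6 RPKM, Sirpa at 48.1 to 91.1 RPKM, Bst2 at 53.7 to 93.4 RPKM and Tcf4 at 28.6 to 57.9 RPKM. The lists thus held genes at 0 and genes at high levels in both groups.

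Myeloid maturation genes moved with the group labels. Of 12 monocyte and macrophage markers 8 were tested, 3 were called lower under the Asic3-null label and none higher, with a median log2 fold change of -1.01, namely Adgre1 (-1.36, adjusted p = 0.00732), Csf1r (-1.50, adjusted p = 0.00261) and Ccr2 (-1.46, adjusted p = 0.00771). The summed level of the list was 1128 to 1331 RPKM against 1538 to 1700 RPKM. Of 10 maturing neutrophil markers 9 were tested and all 9 were called lower, S100a8, S100a9, Ltf, Camp, Ngp, Lcn2, Mmp8, Mmp9 and Retnlg, with a median of -3.48 and sums of 211.3 to 348.1 RPKM against 3816 to 4260 RPKM. Retnlg lost the call in 6 of 14 alternatives. Of 8 genes of the sort and of the MLL-AF9 program all 8 were tested, 5 lay below 0 and the median log2 fold change was -0.43, with 1 called lower, Itgam, and 1 called higher, Meis1. Meis1, a homeobox factor, was higher by 0.91 on the log2 scale (adjusted p = 0.0367), with the call made in 6 of 14 alternatives and lost without any 1 library except Asic3-null replicate 1. Hoxa9, another homeobox factor of that program and named after its values were seen, was at 67.1, 42.3 and 48.9 RPKM against 73.5, 73.5 and 87.8 RPKM, without overlap but not called (log2 fold change -0.58, adjusted p = 0.151 from limma). Of 8 T cell markers only Cd247 was tested (adjusted p = 0.999), and of the erythroid markers only Hba-a1 (adjusted p = 0.298, at 0 under the Asic3-null label and 4.25, 1.84 and 0 RPKM under the WT label). Without WT replicate 3, Hba-a1 was called lower (adjusted p = 0.0471 from limma). The part of these genes in the values of the class II set was not tested.

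Because H2-Ab1, H2-Aa, H2-Eb1 and Cd74 are usually transcribed together, their mean standardized level over the 6 libraries was also used as a profile. In these libraries the log2 fold changes of H2-Ab1 (0.88) and Cd74 (-0.84) had opposite signs, so the profile is an average and not a shared course. It also holds the H2-Ab1 values that chose the set. The tested genes outside the set with the highest Pearson correlation to the profile were Sec16b (0.983), Adcy3 (0.979), Nfya (0.977), Pcyt1a (0.977) and Bcl9 (0.975). These are the top of 12037 genes over only 6 libraries that share their labels and depth, and 3 of the 4 genes of the profile rested on at most 40 reads, so the values are a description without a test. Sec16b was at 6.22, 10.5 and 10.99 RPKM against 5.73, 10.4 and 5.99 RPKM, with overlapping groups.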

How the data were processed

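YFP+Mac-1+c-Kit+ LICs were sequenced in 3 libraries labelled Asic3-null and 3 labelled WT, grouped and numbered as in the sample titles. The submitters' processing notes name CASAVA 1.8.2, TopHat2 2.0.12 and GRCm38. The authors deposited RPKM values per Entrez gene, in which gene length and library size are already divided out. The counting tool is not given in the sources used here. For each of the 16825 genes above 0 the values corresponded to whole reads (tolerance 0.0001 reads), which fixed library sizes of 1947168 to 2381861 reads. These reads are inferred, and intervals from them cover counting error only. Symbols and spans came from RefSeq for GRCm38.p6, which named 25275 of 27179 genes.

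Genes with a mean of at least 1 RPKM, 12037 in all, were tested by limma 3.58.1 (R 4.3.3) on log2(RPKM + 1) (moderated test with an intensity trend, group as the only term, Benjamini-Hochberg adjustment over all tested genes, threshold 0.05). Fold changes on this scale understate the change of low genes. Members under the filter were read from the fit with no filter. Other steps used Python 3.11.15, numpy 2.4.6, pandas 2.3.3 and scipy 1.17.1, and the test was checked on simulated data.

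The members and gene lists were chosen with earlier results of these data known. The genes named are the 10 members, in each list every called gene or otherwise the 3 with the lowest p, the 5 most like the class II profile, tested genes from H2-K1 to H2-Ea, Asic3, Itgam and Kit. Any other gene was picked with its values in view, and 1 listed marker gene is not reported here. The alternatives were a pseudocount of 0.1, no filter, a mean of at least 5 RPKM, quantile normalization, median-ratio scaling, limma-voom on the recovered reads, no intensity trend, a replicate block, leaving out each library in turn, and an unadjusted threshold.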

Additional observations from a re-analysis of the deposited data

How the results depend on the processing

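Over all genes, 403 were called (63 higher and 340 lower), and the count was 246 with the replicate block, 203 to 293 with 1 library left out and 1912 at an unadjusted p under 0.05; it stayed within 1.5 times, at 288 to 543, under the other alternatives. Of the class II set, 1 gene was called, H2-Ab1, whose difference in this same comparison chose the set, so this count and its changes are a description. The count was 0 with no filter on low values and 0 with no intensity trend, 0 in 5 of the 6 fits with 1 library left out (1 without Asic3-null replicate 1), and 2 at an unadjusted p under 0.05, where H2-Oa joined. H2-Ab1 was called in 7 of 14 alternatives, with a log2 fold change of 0.80 to 1.016. No alternative called any other member at the adjusted threshold. Of 121 log2 fold changes of the members under the alternatives, 3 changed sign. With 1 library left out, H2-Aa ran from -0.122 (without Asic3-null replicate 3) to 0.698, H2-DMb1 from -0.153 (without WT replicate 2) to 0.25 and H2-DMb2 from -0.205 to 0.13 (without Asic3-null replicate 1). Among the other named genes, Cd247 turned from -0.001 to 0.098 under quantile normalization. With 1 library left out, Cd247 ran from -0.235 to 0.402, Cd37 from -0.152 to 0.022, Cd79b from -0.148 to 0.018 and Vpreb1 from -0.497 to 0.784. The cause of these changes was not tested.

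The replicate numbers gave no sign of pairing. The deviations of same-numbered libraries correlated at 0.0591, -0.0593 and -0.123, and those of differently numbered libraries at -0.0727 to 0.141. These are deviations from means of only 3 libraries, so they cannot exclude a pairing. The replicate block left H2-Ab1 called and took Ctsb, Icosl and Meis1 past the threshold, at adjusted p of 0.143, 0.0689 and 0.0761. Depth limits the set most where 6 to 40 reads lie behind H2-Eb1, H2-Aa and Cd74 and 0 behind Ciita.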
